A study of Mus musculus with 15 samples.

Results

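The 41 genes described here encode the antioxidant and glutathione defence of the cell, together with its main regulator pair, Nfe2l2 and Keap1. They were listed by name, as genes of the NRF2 pathway, glutathione metabolism, peroxidases and glutathione transferases, with earlier results of these data known. All 41 were found among the 55471 genes of the count table. RNA was measured by sequencing of poly(A)-enriched RNA in 15 libraries of mouse cells that the labels call MSCLCs, in a study of YAP1, the fusion EWS::FLI1 and IGF-1 in the reprogramming of mesenchymal stem cells from bone. EWS::FLI1 is the fusion transcription factor of Ewing sarcoma.

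Experiment 1 held 3 wild-type libraries (WT, numbered 202, 234 and 237, genotype label MSC) and 4 EFPrx1 libraries (219, 221, 225 and 229, genotype label EFPrx1MSCLC). Experiment 2 held 2 libraries with the genotype label EF (the design text calls them EFPrx1), 2 labelled ha (ha-EFPrx1) and 4 labelled hr (hr-EFPrx1, numbered 1-1, 1-2, 2-1 and 2-2). Every title of experiment 2 begins with 221, so the EF, ha and hr libraries all share that number and none of them is a wild-type control. The ha titles also hold the words Combi-T and the hr titles Combi-uns, and the EF titles hold neither. What these words mean, and whether they mark a treatment, is not stated. The labels spell out neither ha nor hr nor MSCLC, give no age, strain, passage or treatment, and do not say how the fusion was brought into the cells. They also do not say which libraries came from separate cultures or animals, so each p-value below rests on the scatter among the deposited libraries, part or all of which could be technical.

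NRF2, the product of Nfe2l2, is a transcription factor held at a low level by KEAP1, an adaptor that marks it for degradation. Oxidants and electrophiles modify KEAP1, NRF2 is then spared, and it binds antioxidant response elements near genes that make glutathione, reduce thioredoxin, supply NADPH and detoxify quinones. Because this control acts largely on the protein, the mRNA level of Nfe2l2 or Keap1 is not a measure of NRF2 activity.

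Library totals ran from 14906180 to 26833876 counts in experiment 1 and from 11195371 to 16378368 in experiment 2. The experiments were sequenced on different flowcells, and no difference between them was tested. The 2 EF libraries differed by only 1.32 times the variance of counting, and the pairs hr 1-1 with 1-2 and hr 2-1 with 2-2 by 1.29 and 1.30 times, against 14.8 to 15.8 times between hr pairs and 18.6 times between the ha libraries. Whether such close libraries came from separate cultures is not stated, so counts of calls in experiment 2 are also given with each close pair summed into 1 library. The 12 mesenchymal markers were at 1 CPM or more (CPM, a gene's counts divided by its library's total and put on one common scale) in every group. The 16 blood and macrophage markers summed to 11006 to 31009 CPM in the WT libraries, 519 CPM in EFPrx1 library 219, 54.5 to 71.7 CPM in the other 3 EFPrx1 libraries and 8.02 to 31.1 CPM in experiment 2. In these bulk libraries, fewer cells of a type and less RNA per cell cannot be told apart.

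Levels are CPM after scaling by edgeR's TMM factors, except for the cell type markers, whose CPM used library totals alone. Each mean is given with its SD. A gene was called where edgeR's quasi-likelihood test gave an adjusted p below 0.05 over all genes tested. Of the 41 genes, 37 passed the filter on low counts in both experiments. Gsta1 and Gsta2 passed only in experiment 2, Gpx3 only in experiment 1, and Gpx2 in neither, with 0.0512 CPM in EFPrx1 library 219 and no count elsewhere. In all, 31 of the 41 genes were called in at least 1 of the 4 comparisons. The share of all genes called in at least 1 comparison was not counted. In ha against EF alone, 23.0% of all genes tested were called higher and 19.6% lower. Per kilobase of exon, Prdx1 led in WT (480 CPM per kb) and in ha (139.9), Txn1 led in EF (291) and hr (263), and Gpx8 led in EFPrx1 (146).

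**Figure D1:**
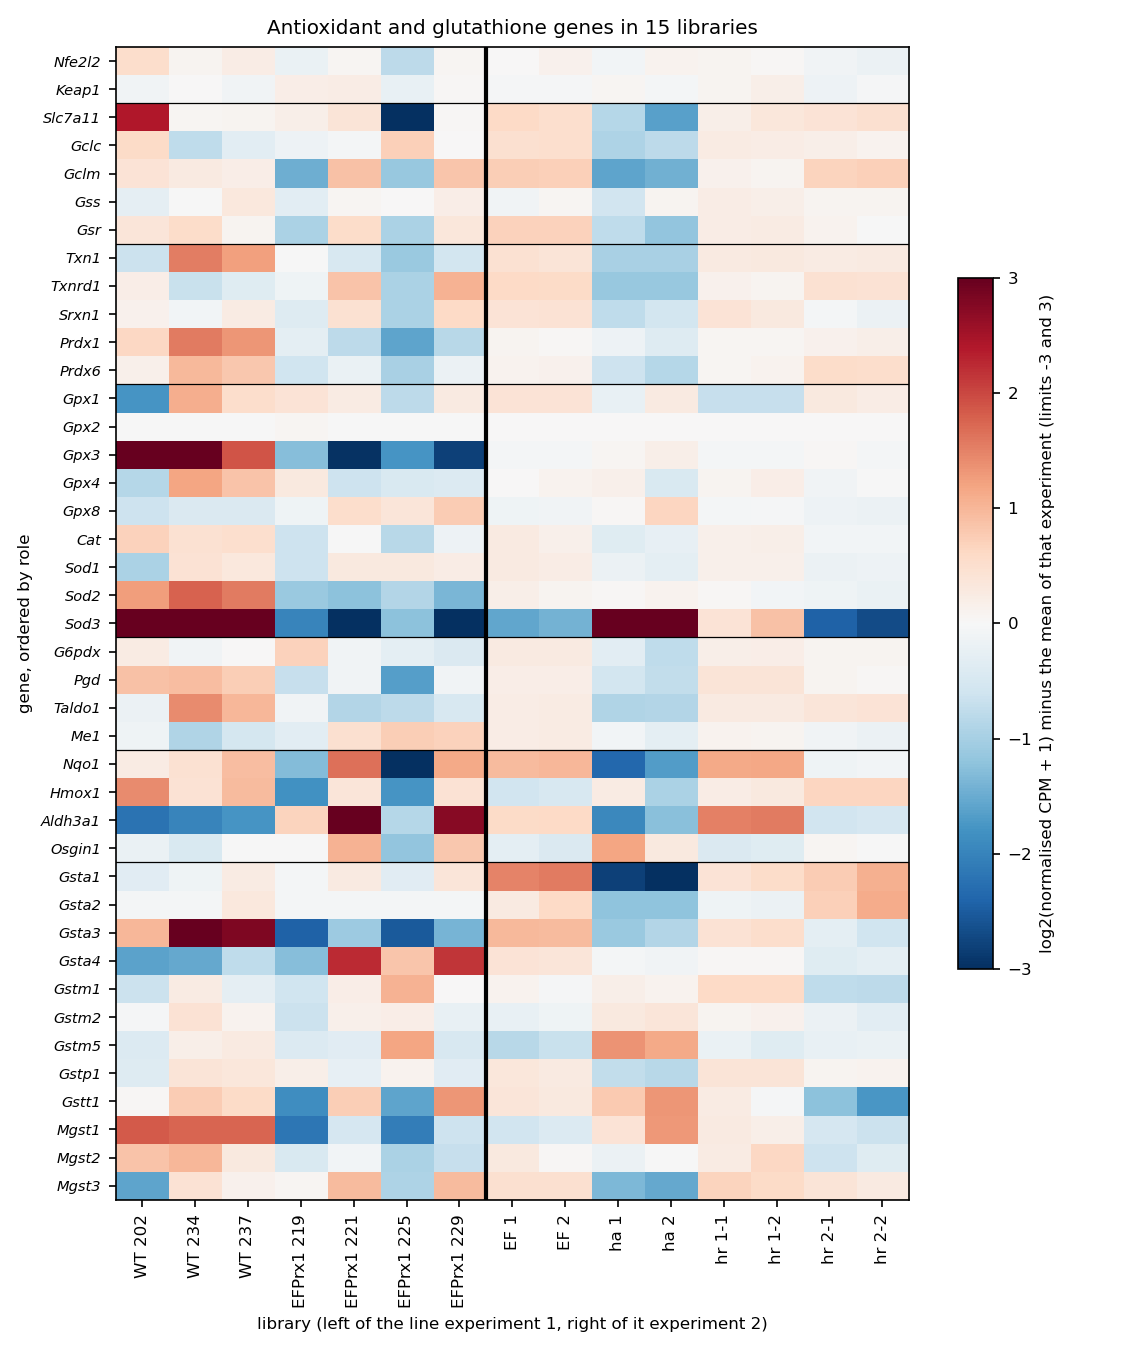
Heatmap of the 41 genes (rows, grouped by role between horizontal lines) in 15 libraries (columns), as log2(normalised CPM + 1) minus the mean of the same experiment, with red above and blue below that mean. The 2 ha columns are blue across most rows of the glutathione synthesis, thioredoxin and NADPH blocks, and the 3 WT columns are red for Gpx3, Sod2, Sod3 and Mgst1.

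The question of the first comparison in experiment 2 was how the ha cells differed from the EF cells. Lower in ha were Slc7a11, Gclc and Gclm of glutathione synthesis (but not Gss), Txn1 and Txnrd1 of the thioredoxin branch, Gsr, G6pdx, Pgd, Taldo1 and Me1, which bear on NADPH, and the quinone reductase gene Nqo1. Of 39 genes tested, 21 were called lower and 5 higher, and 13 did not pass. Against this, 19.6% of the 13998 genes tested were lower and 23.0% higher. The ha and EF libraries did not overlap for 32 of the 39 genes, and for 75.8% of all genes tested. The median log2 difference was -0.50 over the 39 genes and 0.05 over all genes. A fall of at least 2-fold was called for 14 genes, among them Nqo1, Gclm, Slc7a11, Txnrd1, Gsr and Mgst3. The share of all genes with such a fall was not counted. With each close pair summed, 9 remained called lower (Nqo1, Gclc, Gclm, Txnrd1, Txn1, Gsr, Taldo1, Gsta1 and Mgst3) and 1 higher (Gstm5), where 1.87% of all genes were called lower and 2.74% higher.

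The regulator genes did not pass. Nfe2l2 stood at 165 and 178 CPM in EF, 154 and 177 in ha and 173, 168, 152 and 145 in hr, and the 3 groups overlapped. Keap1 stood at 64.6 and 64.7 CPM in EF, 69.5 and 63.9 in ha and 70.8, 75.7, 59.6 and 64.7 in hr, also with overlap. Between ha and EF the log2 difference was -0.05 ± 0.13 (SE) for Nfe2l2 and 0.05 ± 0.13 for Keap1 (edgeR adjusted p = 0.784 and 0.803). Of 13 other regulator genes tested, among them Bach1, the repressor that competes with NRF2, the small Maf partners and Cul3, the ligase scaffold of KEAP1, edgeR called 0 between ha and EF, with 0 at an unadjusted p below 0.05, and DESeq2 and limma-voom also called 0.

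Glutathione is made from cysteine, glutamate and glycine, and SLC7A11 imports cystine, the source of the cysteine. Slc7a11 stood at 22.4 and 20.7 CPM in EF, 7.46 and 3.95 in ha and 16.3, 18.6, 19.6 and 20.4 in hr. Both ha libraries lay below all others, and the gene fell by 1.92 ± 0.28 on the log2 scale (edgeR adjusted p = 0.00176; 0.0606 with close pairs summed). Gclc, the catalytic subunit of glutamate-cysteine ligase (ENSMUSG00000032350, chr9:77754535-77794485, plus strand), stood at 74.5 and 75.5 CPM in EF, 27.5 and 30.4 in ha and 57.5 to 63.1 in hr. It fell by 1.37 ± 0.10 (edgeR adjusted p = 0.000182). Gclm, the modifier subunit of the same enzyme (ENSMUSG00000028124, chr3:122245557-122270732, plus strand), stood at 180.3 and 179 CPM in EF, 35.3 and 39.0 in ha and 118, 114, 171 and 177 in hr. This was a 4.84-fold lower level in ha than in EF, at -2.27 ± 0.24 (edgeR adjusted p = 0.000571). Gss, the second enzyme of the pathway, had 31.0 and 34.9 CPM in EF and 22.1 and 35.9 in ha and did not pass. Gsr, which reduces oxidised glutathione, went from 117 and 116 CPM to 41.9 and 30.9 and fell by 1.68 ± 0.16 (edgeR adjusted p = 0.000429).

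The thioredoxin branch reduces protein disulphides and peroxiredoxins. Txn1, thioredoxin itself, stood at 314 and 297 CPM in EF, 116 and 115 in ha and 271 to 281 in hr, so the ha libraries were apart from all 6 others. Its log2 difference between ha and EF was -1.40 ± 0.10 (edgeR adjusted p = 0.000153). Txnrd1, the reductase that recharges thioredoxin with NADPH, stood at 487 and 480.0 CPM in EF, 145 and 144 in ha and 348, 339.7, 444 and 434 in hr, and fell by 1.74 ± 0.16 (edgeR adjusted p = 0.000378). Srxn1, which repairs overoxidised peroxiredoxins, had 184 and 186 CPM in EF, 79.9 and 93.6 in ha and 122 to 181 in hr, and fell by 1.09 ± 0.20 (edgeR adjusted p = 0.00471; 0.0774 with close pairs summed). Prdx1, the abundant cytosolic peroxiredoxin, stood at 540.1 and 530.0 CPM in EF against 459 and 392 in ha, and its difference of -0.33 ± 0.12 did not pass (edgeR adjusted p = 0.0612). Prdx6 went from 179 and 179.9 CPM to 108 and 91.2, at -0.85 ± 0.20 (edgeR adjusted p = 0.0126), a call lost without ha library 2 or either of the EF pair.

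NADPH feeds both branches. G6pdx, which opens the pentose phosphate pathway, stood at 138 CPM in both EF libraries, 92.8 and 66.8 in ha and 122 to 132 in hr, and fell by 0.79 ± 0.15 (edgeR adjusted p = 0.00549). Pgd, the next NADPH-producing enzyme, went from 242 and 239.7 CPM in EF to 142 and 126 in ha (log2 difference -0.85 ± 0.16, edgeR adjusted p = 0.00484). Taldo1, of the non-oxidative arm, went from 123 and 125 CPM to 55.7 and 56.7 (-1.14 ± 0.10, edgeR adjusted p = 0.000307). Me1, the cytosolic malic enzyme, went from 126 and 128 CPM to 101 and 88.3 (-0.43 ± 0.13, edgeR adjusted p = 0.0363). With close pairs summed, the calls of G6pdx, Pgd and Me1 were lost, and that of Taldo1 remained. Me1 also lost its call without ha library 2 or either of the EF pair.

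Nqo1 encodes a quinone reductase that is widely used as a readout of NRF2 (ENSMUSG00000003849, chr8:107388225-107403206, minus strand). It stood at 79.6 and 82.1 CPM in EF, 7.1 and 12.1 in ha and 89.8, 91.3, 36.7 and 37.9 in hr. Every ha library was below every other library, and the level in ha was 8.38-fold lower than in EF, at -3.07 ± 0.55 (edgeR adjusted p = 0.0039; at most 0.0454 over the 18 alternatives). Aldh3a1, an aldehyde dehydrogenase, stood at 188 and 189 CPM in EF and 31.8 and 51.6 in ha. Its difference of -2.17 ± 0.79 did not pass with the spread shared by all 3 groups (edgeR adjusted p = 0.0579), and passed in 6 of the 18 alternatives, leaving out hr 2-1 or hr 2-2 among them. Hmox1, which breaks down haem, had 49.4 and 52.5 CPM in EF and 87.8 and 37.7 in ha, on both sides of EF, and did not pass (0.30 ± 0.35, edgeR adjusted p = 0.531). Osgin1, an oxidative stress-induced growth inhibitor, rose from 21.5 and 19.5 CPM in EF to 62.1 and 32.6 in ha (1.21 ± 0.31, edgeR adjusted p = 0.017), a call lost without ha library 1 or either EF library.

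**Figure D2:**
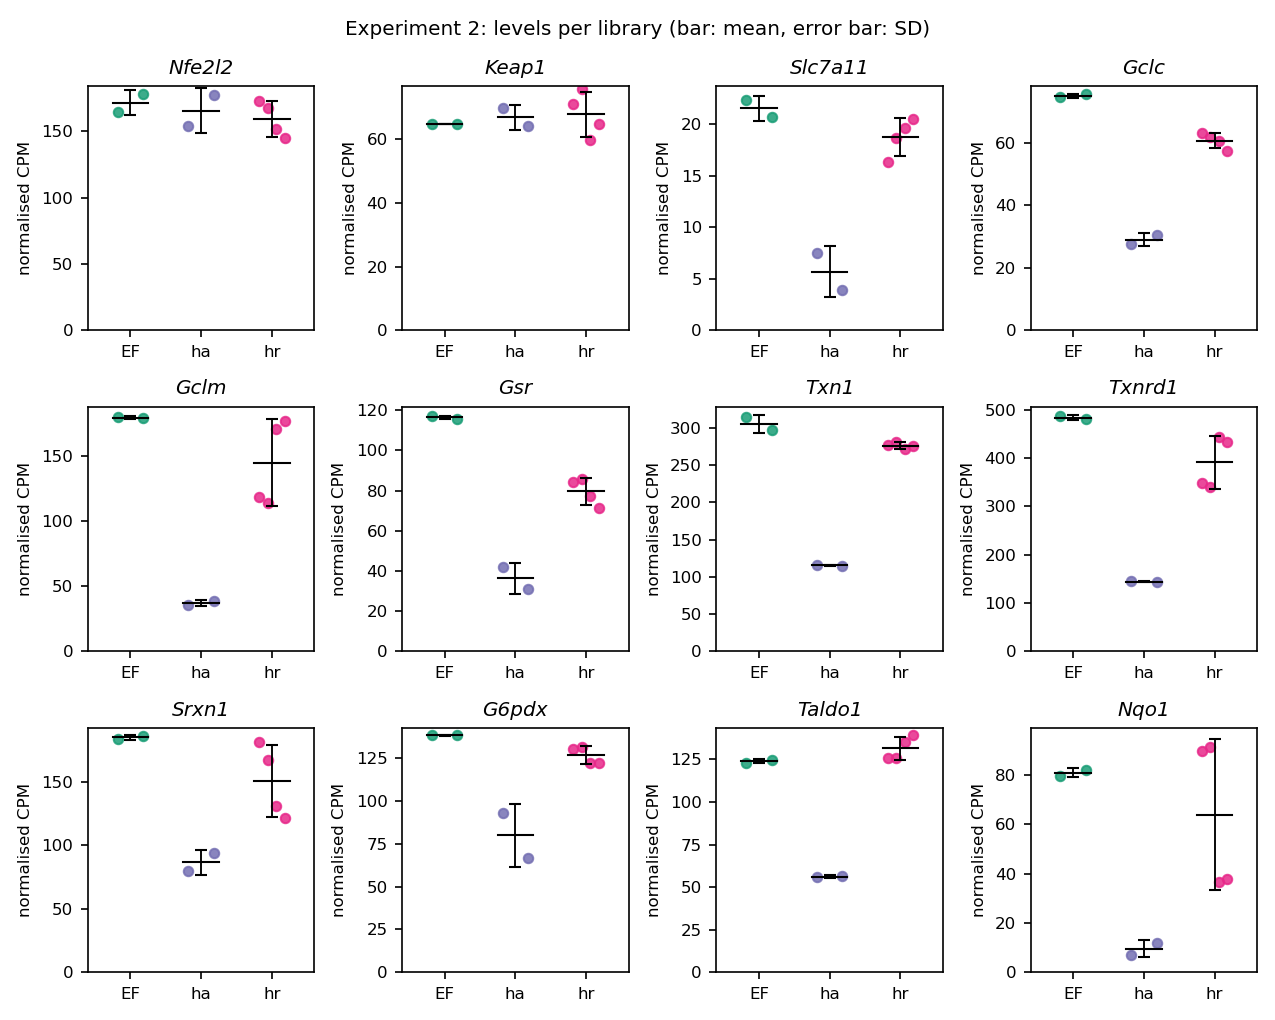
Normalised CPM (y axis, from 0) of 12 genes in the EF, ha and hr libraries (x axis); points are libraries, the bar is the mean and the error bar the SD. Nfe2l2 and Keap1 overlap between groups, whereas both ha points lie below all EF and hr points for the other 10 genes.

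Glutathione transferases attach glutathione to electrophiles, and are given here by class. Gsta1 (ENSMUSG00000074183, chr9:78230656-78242684, plus strand) had 21.6 and 22.6 CPM in EF, 0.146 and 0 in ha and 9.61 to 15.9 in hr. In counts this was 526 in the EF libraries against 2 in ha, a ratio of ha to EF between 0.000357 and 0.0107 (95% interval for counting error only). Gsta2 had 56 counts against 2 (ratio between 0.00328 and 0.105) and Gsta3 had 77 against 3 (between 0.00611 and 0.0918). All 3 were called lower in ha (edgeR adjusted p = 0.000161, 0.005 and 0.00803), and with close pairs summed Gsta1 alone remained. Their fitted differences depended on the ha library kept, with Gsta1 at -11.15 without ha library 1 and -7.14 without ha library 2, and Gsta3 at -4.13 and -8.32. Reads of Gsta1 and Gsta2, which are near-identical, and of Gstp1 and the mu-class genes, which have close paralogs, may be split uncertainly by the counting.

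Gsta4, which handles the lipid peroxidation product hydroxynonenal, went from 104 and 101 CPM in EF to 75.8 and 72.7 in ha (-0.47 ± 0.16, edgeR adjusted p = 0.0438), a call lost without any 1 of the EF or ha libraries. Gstp1 went from 222 and 212 CPM to 106 and 97.9 (-1.09 ± 0.15, edgeR adjusted p = 0.0013). Mgst3, a microsomal member, went from 43.3 and 43.2 CPM to 11.4 and 9.96 (-2.02 ± 0.16, edgeR adjusted p = 0.000219), while hr stayed at 37.2 to 48.9.

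Other transferases were higher in ha. Gstm5 rose from 8.07 and 9.18 CPM in EF to 39.9 and 34.6 in ha, with hr at 11.6 to 13.1 (2.11 ± 0.15, edgeR adjusted p = 0.000147). Mgst1 rose from 9.94 and 11.3 CPM to 20.6 and 39.2 (1.5 ± 0.41, edgeR adjusted p = 0.0223), and Gstm2 from 59.9 and 63.8 to 85.7 and 90.1 (0.51 ± 0.16, edgeR adjusted p = 0.0355). The calls of Mgst1 and Gstm2 were lost without ha library 2 or either of the EF pair, and that of Gstm2 also without ha library 1. Gstm1 had 156 and 142 CPM in EF and 163 and 156 in ha and did not pass (0.10 ± 0.50, edgeR adjusted p = 0.889).

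Among the enzymes that act on superoxide and peroxide, Cat, the peroxisomal catalase, went from 93.3 and 86.4 CPM in EF to 59.6 and 65.4 in ha (-0.52 ± 0.13, edgeR adjusted p = 0.0161). Sod1, the cytosolic dismutase, went from 192 and 187 CPM to 139 and 128 (-0.50 ± 0.15, edgeR adjusted p = 0.0315). Both calls were lost without ha library 1 or either of the EF pair, and that of Sod1 also without ha library 2. Sod2, the mitochondrial dismutase, had 84.9 and 79.8 CPM in EF and 77.2 and 81.1 in ha and did not pass (edgeR adjusted p = 0.702). Sod3, the secreted dismutase that binds the extracellular matrix (ENSMUSG00000072941, chr5:52363791-52371418, plus strand), rose from 2.4 and 2.71 CPM in EF to 86.4 and 123 in ha, 40.8-fold (5.35 ± 1.42, edgeR adjusted p = 0.0193). Leaving out ha library 2 or either library of EF ended that call, with the adjusted p of edgeR reaching 0.132 over all alternatives. Gpx3, the secreted glutathione peroxidase, was near its detection limit, with 0 in both EF libraries and 0.0732 and 0.177 CPM in ha. Gpx1, Gpx4 and Gpx8 did not pass, at differences of -0.38, -0.18 and 0.49. Leaving out ha library 1 brought Gpx4, Gpx8 and Prdx1 past the threshold, and leaving out ha library 2 brought Gss and Hmox1.

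The marker lists moved with this comparison as well. The 8 epithelial markers, led by Krt19, summed to 14.1 to 16.2 CPM in EF, 0.733 to 0.979 in ha and 39.3 to 54.0 in hr, with Epcam at 0 throughout. The 12 mesenchymal markers summed to 12981 to 13047 CPM in EF, 22164 to 23065 in ha and 11367 to 13973 in hr, but they did not move together. Among them, Col1a2 was at 3635 and 3685 CPM in EF and 9020 and 8392 in ha. Vim went the other way, from 4657 and 4618 CPM in EF to 1839 and 2193 in ha. The 16 blood and macrophage markers summed to 9.65 to 9.69 CPM in EF, 12.45 to 31.1 in ha and 8.02 to 9.54 in hr. Among them, Adgre1, Tyrobp, C1qa, C1qb, C1qc and Cd48 were at 0 in all 8 libraries of experiment 2. Lyz2 was at 2.59 and 2.06 CPM in EF, 6.57 and 11.4 in ha and 0.170 to 0.790 in hr. Cd14 was at 2.23 and 3.02 CPM in EF, 3.22 and 14.7 in ha and 2.67 to 3.32 in hr. The part of the epithelial, mesenchymal and macrophage marker changes in the ha result was not tested.

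Promoter windows from RefSeq (build GRCm38.p6, 250 bases before to 50 after each start) were found for 34 of the 41 genes. Aldh3a1, Gclc, Gsr, Gsta4, Hmox1, Prdx6 and Sod3 had no entry. The core of the antioxidant response element, TGACNNNGC on either strand, occurred in 12 of these 34 genes (35.3%), against 14.0% of all genes in the table. The related AP-1 motif TGANTCA, which can overlap it, occurred in 7 (20.6%, against 8.97%). The genes were listed partly as genes of the NRF2 pathway, so the share with the core is not independent of their choice. Of the 21 genes called lower in ha, 17 had a window and 8 of these held the core. It was absent from the windows of Nqo1, Slc7a11, Txn1, Taldo1, Cat, Gsta1, Gsta2, Gstp1 and Mgst3, which were also called lower. Of the 17 other genes with a window, 4 held it, among them Gstm5 and Mgst1, which are 2 of the 4 genes called higher in ha that had a window. A match describes the letters in the window and does not show binding. The following stretches, written 5′ to 3′ along the gene's strand with the match in capitals, come from 5 genes called lower in ha, and from Prdx1, where the match overlaps an AP-1 motif. The match lay 134 bases before the start in Gclm, 92 in Txnrd1 (in 1 of its 3 windows), 57 in G6pdx, 121 in Gsta3, 56 in Sod1 and 133 in Prdx1.
Gclm, chr3:122245403-122245451, plus strand: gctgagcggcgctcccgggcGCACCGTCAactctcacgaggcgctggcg
Txnrd1, chr10:82859094-82859142, plus strand: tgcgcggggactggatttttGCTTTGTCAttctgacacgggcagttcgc
G6pdx, chrX:74428909-74428957, minus strand: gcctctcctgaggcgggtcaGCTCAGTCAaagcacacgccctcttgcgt
Gsta3, chr1:21240444-21240492, plus strand: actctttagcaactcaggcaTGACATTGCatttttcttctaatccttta
Sod1, chr16:90220686-90220734, plus strand: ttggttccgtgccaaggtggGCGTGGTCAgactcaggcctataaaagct
Prdx1, chr4:116685446-116685494, plus strand: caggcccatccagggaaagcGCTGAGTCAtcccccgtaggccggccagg
In Gsta3 the core reads along the gene's strand, and in the other 5 its reverse complement does.

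The comparison of hr with ha answered how the 2 derived groups differed from each other, and it shares its ha libraries with the comparison above. The hr level was called above ha for 20 of 39 genes and below it for 5. Across the whole table, 17.9% were higher and 21.5% lower. The groups did not overlap for 28 of the 39 genes, and for 55.9% of all genes tested. The median log2 difference was 0.38 over the 39 genes and 0.00 over all genes. With close pairs summed, 12 were called higher and 1 lower, where 2.69% of all genes were higher and 5.28% lower. The level in ha was called below both EF and hr for 18 genes and above both for 4 (Sod3, Gstm5, Mgst1 and Osgin1). The share of all genes called in both comparisons was not counted, so these counts do not set the genes apart from the table. Both ha libraries lay below all 6 EF and hr libraries for 21 genes and above them for 8, as they did for 22.7% and 26.4% of all genes tested.

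Relative to ha, the hr level of Nqo1 was 6.63-fold higher (2.73 ± 0.50), that of Gclm 3.91-fold (1.97 ± 0.22), of Slc7a11 3.30-fold (1.72 ± 0.25), of Txnrd1 2.71-fold (1.44 ± 0.15) and of Gclc 2.09-fold (1.07 ± 0.09; edgeR adjusted p = 0.00494, 0.000628, 0.00188, 0.000443 and 0.000203). Gsr, Txn1, Taldo1, Gstp1 and Mgst3 were 2.19-, 2.39-, 2.34-, 2.06- and 4.02-fold higher. These 10 calls held in every alternative run. Pgd, Prdx6, G6pdx and Srxn1 were 1.83-, 2.09-, 1.59- and 1.73-fold higher and were not called with close pairs summed, nor was Srxn1 without ha library 1. Ratios of hr to ha were between 51.5 and 1546 for Gsta1, 10.3 and 317 for Gsta2 and 4.38 and 66.6 for Gsta3. Gsta3 was not called without ha library 1, and its fitted difference of 3.66 ± 1.01 was 2.84 without that library and 7.04 without ha library 2. Gsta1 went from 7.34 ± 0.57 to 10.3 without ha library 1 and 6.29 without ha library 2.

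The smaller increases of Prdx1 and Cat were lost with several omissions. Prdx1 had 535 to 576 CPM in hr (0.38 ± 0.11, edgeR adjusted p = 0.0264), and Cat had 73.1 to 88.1 CPM (0.36 ± 0.12, edgeR adjusted p = 0.0418). Each lost its call without ha library 2 or either of the EF pair, which shares in the estimate of spread. Prdx1 also lost it without hr 2-1 or 2-2, and Cat without ha library 1, hr 1-1 or hr 1-2. Aldh3a1 had 361, 373, 84.0 and 88.1 CPM in hr, all above ha (2.44 ± 0.74, edgeR adjusted p = 0.0342), and its call was lost without either EF library, either ha library, hr 1-1 or hr 1-2.

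Lower in hr than in ha were Sod3 at -3.77 ± 0.98, Gstm5 at -1.56 ± 0.12, Mgst1 at -1.10 ± 0.34, Osgin1 at -1.0 ± 0.26 and Gpx8, a peroxidase of the endoplasmic reticulum, at -0.48 ± 0.16 (edgeR adjusted p = 0.0194, 0.000116, 0.0355, 0.0183 and 0.0455). The call of Gstm5 held in every alternative. Without ha library 2, the calls of Sod3, Mgst1 and Gpx8 were lost, and without ha library 1 that of Osgin1. Sod3 stood at -4.54 without hr 1-2. Mgst1 and Gpx8 also lost theirs without either EF library and without hr 2-1 or 2-2, and Gpx8 without hr 1-1 or 1-2. Nfe2l2, Keap1, Sod2, Gstm1 and Gsta4 did not pass, at -0.06, 0.02, -0.16, -0.07 and -0.05, and neither did Hmox1, at 0.71 ± 0.31 (edgeR adjusted p = 0.107). With ha library 1 left out, Hmox1 and Gpx4 passed, with ha library 2 left out Gss, with hr 1-2 left out Gstm2, and with hr 1-1 left out Gstt1.

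Between hr and EF, few genes were called. The test found 1 of 39 higher, Gstm5, and 0 lower, where 3.88% of all genes were called higher and 3.07% lower. At an unadjusted p below 0.05, 2 were higher and 4 lower, DESeq2 called 2 higher and 4 lower, and limma-voom called 0. The comparison shares its 2 EF libraries with that of ha and EF. The median log2 difference was -0.11 over the 39 genes and 0.01 over all genes. Gstm5 rose from 8.07 and 9.18 CPM to between 11.6 and 13.1 (0.55 ± 0.13, edgeR adjusted p = 0.047), a call lost in 11 of 18 alternatives, among them leaving out either EF library or any 1 hr library.

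The hr and EF libraries did not overlap for 20 of the 39 genes, and for 47.0% of all genes tested. Several genes lay outside the EF range in hr without passing. Hmox1 had 86.5, 90.5, 116 and 117 CPM in hr, all above EF (1.01 ± 0.32, edgeR adjusted p = 0.0972). Gsr had 71.3 to 85.7 CPM, all below EF (-0.55 ± 0.14, edgeR adjusted p = 0.054), and so did Gclc (-0.31 ± 0.09, edgeR adjusted p = 0.0728), Gsta4 (-0.52 ± 0.13, edgeR adjusted p = 0.0579) and Gsta1 (-0.85 ± 0.28, edgeR adjusted p = 0.109). Hmox1, Gsr, Gclc and Gsta1 passed when either ha library was left out of the shared spread. Calls between hr and EF also rose over the whole table in these runs, so this is not particular to the 4 genes. For the remaining synthesis and thioredoxin genes the estimates were -0.31 ± 0.20 for Gclm, -0.20 ± 0.23 for Slc7a11, -0.30 ± 0.14 for Txnrd1 and -0.30 ± 0.17 for Srxn1. Nqo1, Nfe2l2, Keap1, Prdx1, Cat, Sod2, G6pdx, Mgst1 and Gstm1 lay between -0.34 and 0.40, without a call. An estimate that did not pass does not show that hr and EF had the same level.

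**Figure D3:**
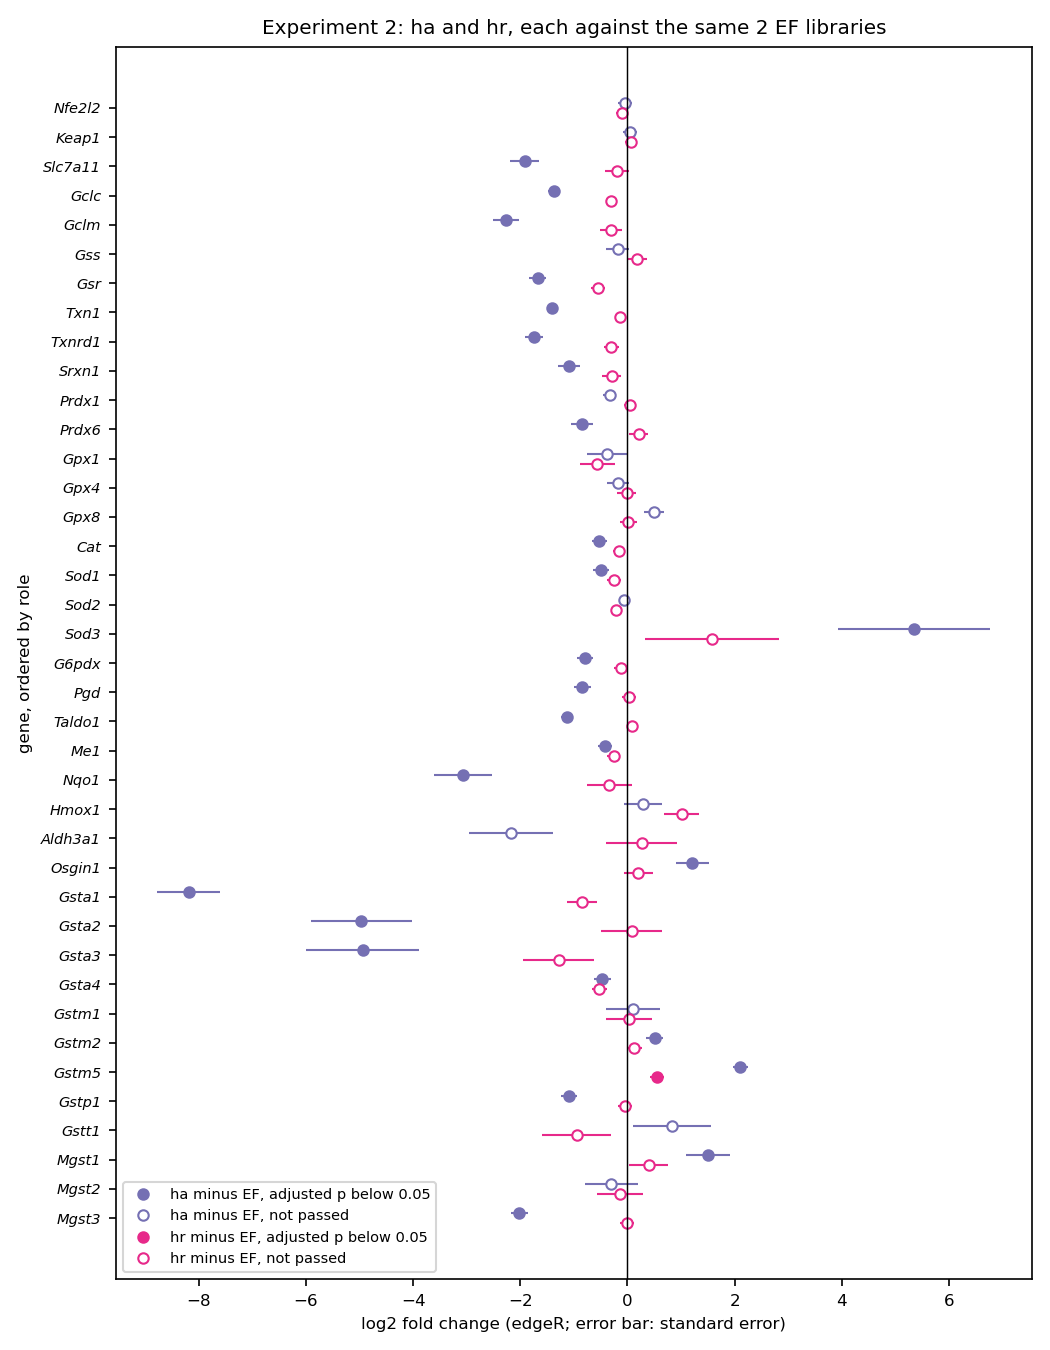
Log2 fold changes (x axis) of the 39 tested genes (y axis, by role) in ha minus EF and hr minus EF, which share the EF libraries; error bars are standard errors and filled points passed an adjusted p of 0.05. Filled ha points lie left of 0 for 21 genes and right of it for 5, and Gstm5 is the single filled hr point.

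The hr libraries split into 2 pairs by the first number of their titles, and part of the spread in hr lay between these pairs. Of 39 genes at 1 CPM or more in a pair, 10 differed by over 1.5-fold between pair 1 and pair 2, and 8 of these were higher in pair 1. Among 12888 genes of the table at that level, 12.3% were over 1.5-fold higher in pair 1 and 11.1% in pair 2. Aldh3a1 averaged 367 CPM in pair 1 and 86.1 in pair 2, on either side of EF at 189. Gstm1 averaged 219.6 and 84.0 CPM, again around the EF mean of 149, and Nqo1 averaged 90.5 and 37.3 around 80.9. Sod3 averaged 14.8 and 0.695 CPM against 2.55 in EF, and Gstt1, a theta-class transferase, 6.48 and 1.5 against 7.7. Gsta3, Mgst2 and Mgst1 were 3.31-, 2.26- and 1.80-fold higher in pair 1. Higher in pair 2 were Gsta2, 3.02-fold, and Gpx1, with 90.6 CPM in pair 1 and 177 in pair 2. Each pair consists of 2 close libraries, so no test between pairs was made.

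**Figure D4:**
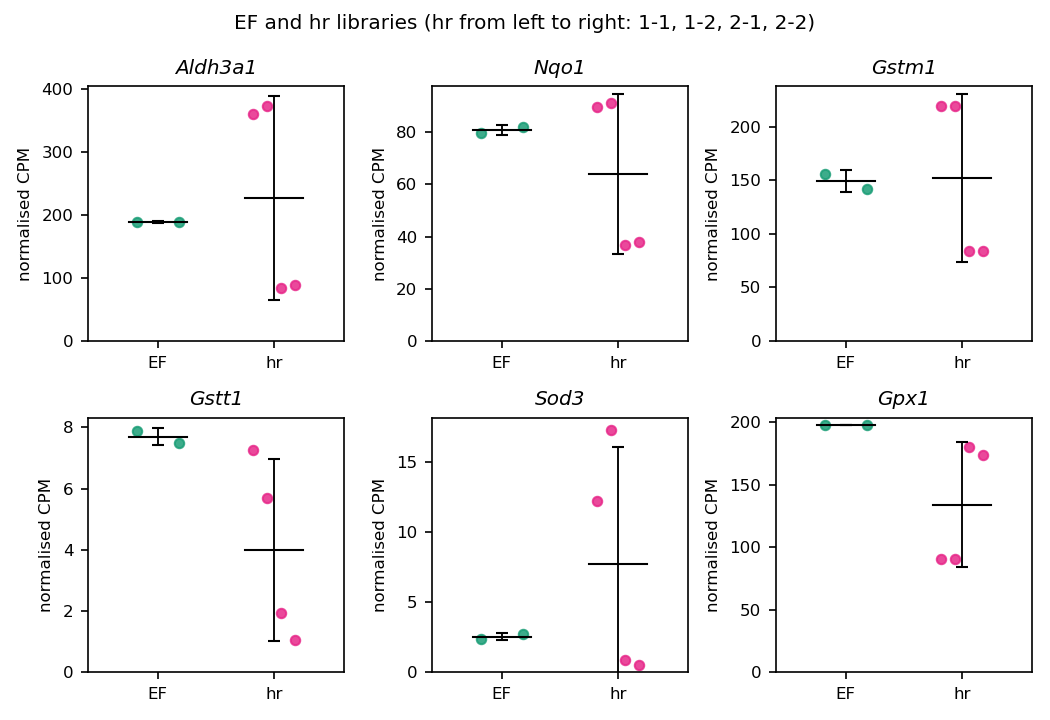
Normalised CPM (y axis, from 0) of 6 genes in the EF and hr libraries (x axis), with hr in the order 1-1, 1-2, 2-1, 2-2; points are libraries, the bar is the mean and the error bar the SD. The 2 left hr points lie above the 2 right ones for every gene shown except Gpx1, where they lie below.

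Experiment 1 compared EFPrx1 with WT. The secreted Gpx3 and Sod3, the mitochondrial Sod2 and the microsomal Mgst1 were lower in EFPrx1, while the synthesis genes and the other microsomal transferases, Mgst2 and Mgst3, did not pass. Of 38 genes tested, 3 were called higher, 10 lower and 25 did not pass. Against this, 7.70% of the 14596 genes tested were higher and 12.1% lower. The groups did not overlap for 14 of the 38 genes, and for 34.5% of all genes tested. The median log2 difference was -0.26 over the 38 genes and 0.04 over all genes. Without WT library 234 or 237, 0 were called higher and 6 or 5 lower, and without EFPrx1 library 229 there were 1 higher and 6 lower. The calls over all genes fell with these omissions too, to 1.78% higher and 6.60% lower, 1.61% and 6.42%, and 3.08% and 8.03%. WT library 202 stood apart from 234 and 237, at 101.5 and 73.7 times counting variance against 10.4 times between those 2, and without it 2519 genes were called higher and 2568 lower in place of 1124 and 1763. The calls of Gpx3, Sod2, Sod3, Gsta3 and Mgst1 held in every alternative run. Every WT library had a higher sum of macrophage markers than every EFPrx1 library, as given above. The 12 mesenchymal markers summed to 20465 to 35113 CPM in WT and 5149 to 11504 in EFPrx1, but they did not move together. Among them, Col1a1, Col1a2 and Col3a1 were lower in every EFPrx1 library than in every WT library. Prrx1 (123 to 243 CPM in WT, 312 to 854 in EFPrx1) and Pdgfra (103 to 295 and 363 to 647) were higher. Mitochondrial genes took 1.63% to 3.52% of counts in WT and 4.06% to 8.43% in EFPrx1. The part of these shifts in each difference of this experiment was not tested.

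Gpx3 (ENSMUSG00000018339, chr11:54902453-54910377, plus strand) had 77.0, 136 and 33.7 CPM in WT and 2.87, 0.192, 1.73 and 0.348 in EFPrx1. The level was 64.8-fold lower (-6.02 ± 0.99, edgeR adjusted p = 0.0072), and 6.91 lower on the log2 scale without library 219. Sod3 had 441, 337 and 411 CPM in WT and 7.02, 1.1, 12.3 and 1.22 in EFPrx1, 73.6-fold lower (-6.20 ± 0.95, edgeR adjusted p = 0.00588; -7.06 without library 225). Sod2 (ENSMUSG00000006818, chr17:13006846-13040063, plus strand) had 254, 360.0 and 313 CPM in WT and 48.3, 44.6, 57.3 and 39.8 in EFPrx1, 6.5-fold lower (-2.70 ± 0.24, edgeR adjusted p = 0.00134). In all 3 genes every WT library lay above every EFPrx1 library.

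Mgst1 had 135, 126 and 126 CPM in WT and 7.38, 25.6, 8.02 and 23.6 in EFPrx1 (-3.0 ± 0.49, edgeR adjusted p = 0.00741). Gsta3 had 11.8, 78.2 and 44.4 CPM in WT and 0.205, 2.06, 0.128 and 1.46 in EFPrx1 (-5.50 ± 1.05, edgeR adjusted p = 0.0122; -4.84 without WT 234 and -6.23 without EFPrx1 221). Prdx1 had 966, 1853 and 1565 CPM in WT and 511, 366, 211 and 351 in EFPrx1, 4.06-fold lower (-2.02 ± 0.39, edgeR adjusted p = 0.0128; 0.0505 without WT 237). None of these groups overlapped.

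Cat had 156, 132 and 137 CPM in WT and 61.9, 95.8, 54.1 and 86.2 in EFPrx1 (-0.92 ± 0.26, edgeR adjusted p = 0.0435). Prdx6 went from 169, 299 and 269 CPM to 101, 132, 76.6 and 135 (-1.15 ± 0.31, edgeR adjusted p = 0.0388). Pgd went from 370.4, 384 and 337 CPM to 124, 187, 62.7 and 186 (-1.38 ± 0.39, edgeR adjusted p = 0.0446). Taldo1, whose groups overlapped, was called at -1.43 ± 0.39 (edgeR adjusted p = 0.0424). These 4 calls were lost in turn without WT 234, WT 237 or EFPrx1 229. Cat and Pgd also lost theirs without WT 202, Cat, Prdx6 and Pgd without EFPrx1 219, Prdx6, Pgd and Taldo1 without EFPrx1 221, and Taldo1 without EFPrx1 225.

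Higher in EFPrx1 were Aldh3a1, Gsta4 and Gpx8. Aldh3a1 had 0.36, 0.605 and 0.866 CPM in WT and 9.02, 66.7, 2.5 and 40.8 in EFPrx1 (5.62 ± 1.24, edgeR adjusted p = 0.0204). That call was lost by limma-voom and without WT 234 or 237. The adjusted p of edgeR, DESeq2 or limma-voom was at most 0.116 over the alternatives. The log2 difference of Aldh3a1 stood at 4.76 without EFPrx1 221. Gpx8 had 74.8, 84.3 and 84.5 CPM in WT and 105, 165, 148 and 196 in EFPrx1 (0.92 ± 0.26, edgeR adjusted p = 0.0464). Gsta4 had 6.52, 6.89 and 12.6 CPM in WT and 8.46, 107, 40.2 and 100.3 in EFPrx1, where library 219 lay within the WT range (2.88 ± 0.83, edgeR adjusted p = 0.0479). The calls of Gpx8 and Gsta4 were both lost under another scaling and when any 1 library except EFPrx1 219 was left out.

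The genes called lower in ha in experiment 2 differed among the EFPrx1 libraries of experiment 1. Of 19 such genes with 1 CPM or more in an EFPrx1 library, 11 were higher in both 221 and 229 than in 219 and 225, as were 26.7% of all genes tested there. The following 3 are among these 11. Gclm had 110.3, 100.4 and 95.9 CPM in WT, 154 and 149 in EFPrx1 221 and 229, and 29.6 and 37.6 in 219 and 225. Nqo1 had 14.3, 16.7 and 23.6 CPM in WT, 39.2 and 27.1 in 221 and 229, and 4.2 and 0.513 in 219 and 225. Txnrd1 had 239, 132 and 161 CPM in WT, 379 and 432 in 221 and 229, and 191 and 108 in 219 and 225. Hmox1, not called in ha, had the same split, with 796, 407 and 578 CPM in WT, 384 and 406 in 221 and 229, and 84.0 and 87.4 in 219 and 225. The remaining 8 had other patterns, with Gclc highest in 225, at 68.4 CPM, and Txn1, Taldo1 and G6pdx highest in 219, at 199, 115 and 176 CPM. Libraries 221 and 229 were also the closest EFPrx1 pair over all genes, at 7.16 times counting variance, against 44.7 to 85.5 times for the other pairs.

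None of Gclm, Nqo1, Txnrd1, Hmox1, Gclc, Slc7a11 and Srxn1 passed between EFPrx1 and WT. The differences were -0.14 ± 0.60 for Gclm, -0.03 ± 1.10 for Nqo1, 0.65 ± 0.51 for Txnrd1 and -1.30 ± 0.65 for Hmox1. Gclc, Slc7a11 and Srxn1 were at 0.23 ± 0.38, -1.5 ± 0.92 and -0.05 ± 0.39. Slc7a11 had 142 CPM in WT 202 and 27 and 27.4 in WT 234 and 237, and its difference was -0.22 without WT 202. Nfe2l2 had 267, 196 and 217 CPM in WT and 160.0, 193, 107 and 194 in EFPrx1, without overlap but also without a call (-0.47 ± 0.28, edgeR adjusted p = 0.263). Keap1, G6pdx and Gstm1 were at 0.13, -0.03 and 0.46, with groups that overlapped. Leaving out WT 202 brought Txn1, Gpx4 and Me1 past the threshold, leaving out EFPrx1 219 brought Me1, and leaving out EFPrx1 221 or 225 brought Mgst2. Gsta1 was not tested, with at most 0.626 CPM in any library of experiment 1.

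**Figure D5:**
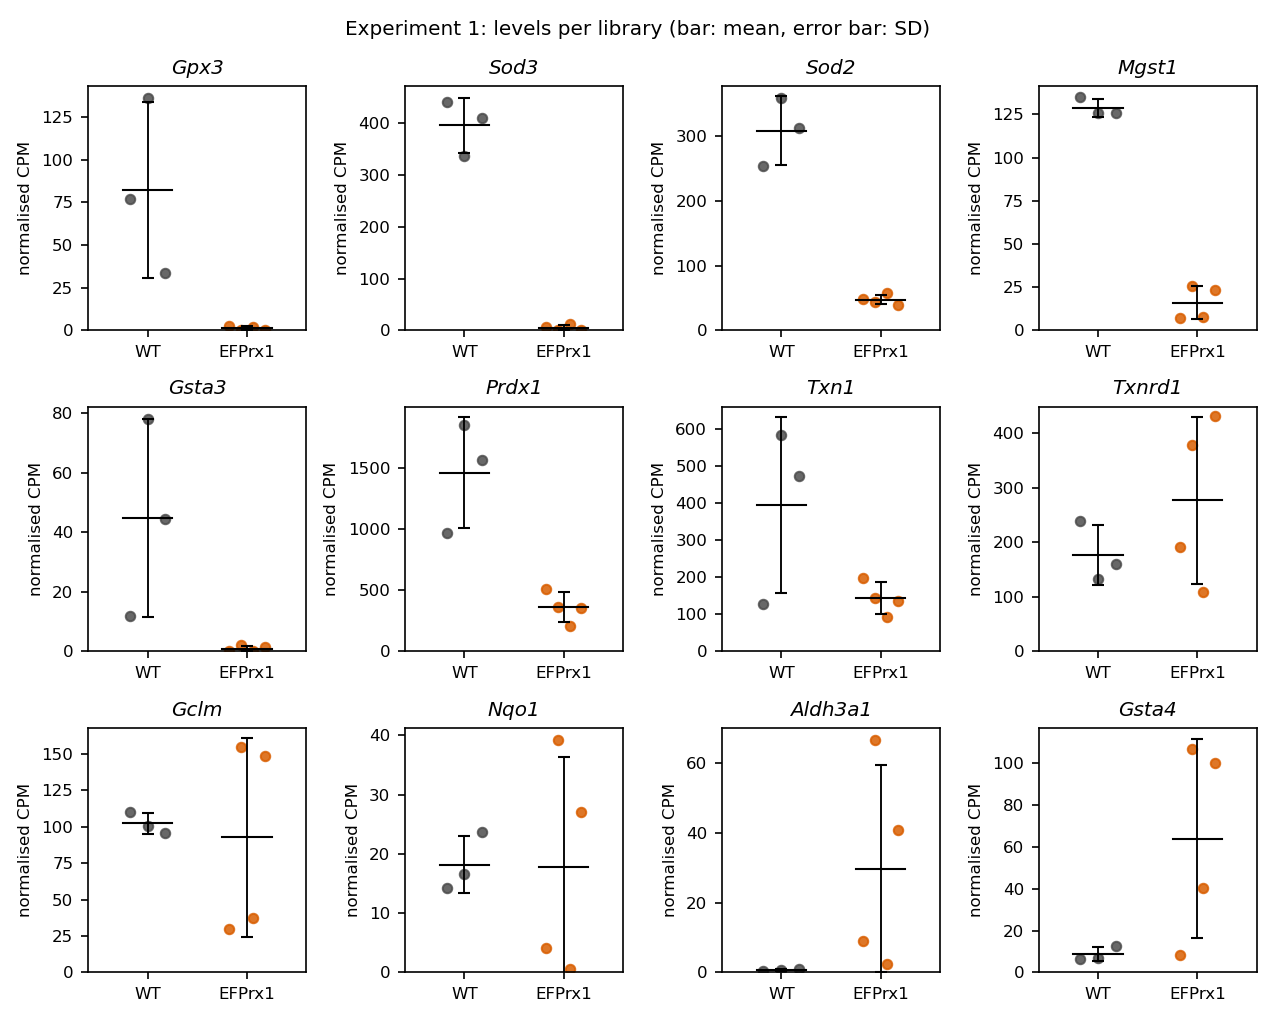
Normalised CPM (y axis, from 0) of 12 genes in the WT and EFPrx1 libraries (x axis, EFPrx1 in the order 219, 221, 225, 229); points are libraries, the bar is the mean and the error bar the SD. The groups are apart for the first 6 genes and for Aldh3a1, and the EFPrx1 points of Txnrd1, Gclm and Nqo1 fall on both sides of the WT points.

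Called in EFPrx1 against WT and in ha against EF were Gsta3, Prdx6, Cat, Pgd and Taldo1, lower in EFPrx1 than WT and lower in ha than EF. Sod3 and Mgst1 were lower in EFPrx1 and higher in ha, and Gsta4 the reverse. Prdx1, Gpx8 and Aldh3a1 were called in EFPrx1 against WT and in hr against ha. The experiments were not compared by a test.

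The other genes of the pathway were followed in 8 lists. In the thioredoxin and glutaredoxin list, 8 of 19 tested genes were called higher and 3 lower in ha than in EF, where 23.0% and 19.6% of all genes were. For the other comparisons, the shares of all genes called higher and lower were 3.88% and 3.07% in hr against EF, 17.9% and 21.5% in hr against ha, and 7.70% and 12.1% in EFPrx1 against WT. Sesn3, a sestrin, rose from 11.6 ± 0.922 to 411 ± 1.25 CPM (5.15 ± 0.20, edgeR adjusted p = 1.67e-05), and was at 36.6 ± 5.58 CPM in hr. Txnip, the thioredoxin-binding protein, rose from 77.4 ± 0.178 to 213 ± 39.2 CPM (1.46 ± 0.14, edgeR adjusted p = 0.000431) and stood at 181 ± 10.1 in hr. Sesn3 and Txnip were also the 2 genes of 19 called higher in hr than in EF, with 0 lower. Between hr and ha, 2 were higher, Glrx3 among them at 0.68 ± 0.10 (edgeR adjusted p = 0.00161), and 5 lower.

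For NADPH supply, 6 of 14 genes were called lower and 1 higher in ha than in EF (19.6% and 23.0% of all genes). Tkt, a transketolase, went from 239 ± 6.33 to 135 ± 28.8 CPM (-0.83 ± 0.15, edgeR adjusted p = 0.00403), and H6pd, the hexose-6-phosphate dehydrogenase of the endoplasmic reticulum, from 22.7 ± 0.269 to 61.1 ± 0.0301 CPM (1.43 ± 0.12, edgeR adjusted p = 0.000257). In hr against ha, 6 were higher and 1 lower, led by the mitochondrial malic enzyme Me2, at 135 ± 17 CPM in hr and 34.2 ± 3.64 in ha. In hr against EF, Me2 and H6pd were called higher and 0 of 14 lower. EFPrx1 had 4 of 14 lower than WT and 0 higher, among them Idh1 at -1.30 ± 0.21 and the folate enzyme Aldh1l1 at -5.30 ± 0.77 (edgeR adjusted p = 0.00697 and 0.00508).

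Exporters of glutathione conjugates and haem transporters gave 3 of 6 lower and 2 higher in ha than in EF (19.6% and 23.0% of all genes). Abcc1, the main exporter of glutathione conjugates, had 528 ± 3.16 CPM in EF, 179 ± 8.41 in ha and 392 ± 3.19 in hr, with -1.56 ± 0.10 in ha against EF and -0.43 ± 0.09 in hr against EF (edgeR adjusted p = 0.000124 and 0.0329). Slc48a1, a haem transporter, was at -1.22 ± 0.22 in ha (edgeR adjusted p = 0.00376). Abcc5 was the other of 2 genes called lower in hr than in EF, at -0.40 ± 0.09. In hr against ha, 3 of 6 were higher, among them Abcc4 at 2.12 ± 0.28, and 1 lower. EFPrx1 had 1 of 7 higher than WT, Abcg2 at 1.48 ± 0.21, and 1 lower, Abcc3 at -4.75 ± 1.14 (edgeR adjusted p = 0.00466 and 0.027).

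Of 12 tested genes of glutathione turnover, 4 were lower and 1 higher in ha than in EF (19.6% and 23.0% of all genes), with the aminopeptidase Lap3 at -1.16 ± 0.20 and the 5-oxoprolinase Oplah at 2.54 ± 0.27. In hr against ha, 4 were higher, among them Chac1, a glutathione-degrading enzyme, at 1.64 ± 0.32, and 1 lower. EFPrx1 had 6 of 15 lower than WT and 1 higher. Gpx7 went from 46.2 ± 14.3 to 0.0933 ± 0.0859 CPM, and Slc1a5, a glutamine carrier, was at -3.07 ± 0.44 (edgeR adjusted p = 0.0047). Other transferases gave 2 of 8 higher and 3 lower in ha than in EF (23.0% and 19.6% of all genes), with Gstt3 at 1.09 ± 0.24 and Gstcd at -0.73 ± 0.19. Among them Gstm4 had 55 counts in ha and 0 in EF, at least 14.2-fold higher when EF is set to 3 counts over the group. In hr against ha, 3 were higher, Gsto1 among them at 0.52 ± 0.14, and 2 lower. EFPrx1 had 3 of 12 lower than WT, among them Gstk1, at 8.92 ± 3.73 CPM in WT and 0.0495 ± 0.0121 in EFPrx1, and Hpgds at -5.43 ± 1.31.

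In the list of haem, iron and quinone handling, 3 of 19 were higher and 4 lower in ha than in EF, or 15.8% and 21.1%, near the 23.0% and 19.6% of all genes. Ephx1, an epoxide hydrolase, rose in ha (1.11 ± 0.15) and in hr (1.34 ± 0.13) against EF (edgeR adjusted p = 0.0012 and 0.00594), and Ugdh fell by 1.33 ± 0.14 in ha (edgeR adjusted p = 0.000571). Cbr3, a carbonyl reductase, was the 1 gene lower in hr than in EF, at -1.09 ± 0.17. In hr against ha, 3 were higher and 2 lower, among them the iron exporter Slc40a1 at -1.03 ± 0.16. EFPrx1 had 4 of 20 lower than WT and 1 higher, with Fth1, the ferritin heavy chain, at -3.59 ± 0.60 and Fech, which inserts iron into haem, at 1.26 ± 0.23. Of the remaining regulators, Btrc and Dpp9 were higher in EFPrx1 than WT (0.94 ± 0.24 and 0.91 ± 0.25), 1 of 13 was lower, and Rbx1 was lower in hr than in ha at -0.33 ± 0.10.

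Among oxidant producers, 6 of 11 tested genes were lower in EFPrx1 than in WT and 0 higher, where 12.1% and 7.70% of all genes were. Among them were Cyba and Ncf4, which encode parts of the phagocyte NADPH oxidase, the enzyme that makes superoxide. Cyba went from 414 ± 232 to 9.25 ± 5.19 CPM and Ncf4 from 87.5 ± 56.0 to 0.896 ± 0.639 CPM (edgeR adjusted p = 0.00272 and 0.00217). The macrophage markers moved with them, from sums of 11006 to 31009 CPM in WT to 54.5 to 519 in EFPrx1, and their part was not tested. In ha against EF, 1 of 6 was lower, the xanthine oxidoreductase gene Xdh at -1.14 ± 0.33 (edgeR adjusted p = 0.0279), and 1 higher.

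Some lists had no call in 1 or both directions by edgeR, and those counts of 0 stand beside the other rules here. In EFPrx1 against WT, 0 of 14 NADPH genes and 0 of 11 oxidant producers were higher, also at an unadjusted p below 0.05 and by DESeq2 or limma-voom. The 0 of 12 other transferases higher in EFPrx1 compare with 1 at an unadjusted p below 0.05 and 0 by DESeq2 or limma-voom. Between hr and EF, edgeR called 0 of 13 regulators and 0 of 12 turnover genes in either direction, also at an unadjusted p below 0.05, and so did DESeq2 and limma-voom. For the 8 other transferases that count was 0, with 1 higher at an unadjusted p below 0.05, 1 higher by DESeq2 and 0 by limma-voom. For the 6 oxidant producers it was 0, with 1 higher at an unadjusted p below 0.05 and 0 by DESeq2 or limma-voom. For NADPH and for thioredoxin genes, 0 were lower in hr than in EF by edgeR, DESeq2 and limma-voom, with 2 in each list at an unadjusted p below 0.05. Of the efflux genes, 0 were higher in hr than in EF by edgeR and limma-voom, with 1 at an unadjusted p below 0.05 and 1 by DESeq2. Between hr and ha, 0 of 6 oxidant producers were called, where 2 were higher at an unadjusted p below 0.05, 2 by DESeq2 and 1 by limma-voom. No regulator was higher in hr than in ha by the 3 tools, with 1 at an unadjusted p below 0.05 by edgeR.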

How the data were processed

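Gene-level values are RSEM expected counts in 1 deposited table of 15 libraries. The submitters' processing notes name STAR, RSEM and GRCm38.p6. The sources used here give neither annotation release nor strand setting. Of the values, 8.27% were not whole, and all were rounded. Each experiment was fitted once over all its groups with edgeR 4.0.16 in R 4.3.3 (filterByExpr with a minimum count of 10, TMM, robust quasi-likelihood), and p-values were adjusted by Benjamini-Hochberg over all genes tested. The threshold was 0.05. Alternatives used DESeq2 1.42.0 (size factors or Wald test), limma-voom (limma 3.58.1), no filter, a filter at 5 CPM, the compared groups only, each library left out, the replicate number as a block, close libraries summed, and either pair of hr libraries alone. The code was tested on simulated counts.

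The text gives every gene called in a comparison and 20 fixed genes in each. From each list it gives at most 2 called genes per comparison, over both directions together. These had the lowest p-values among called genes with a mean of 5 CPM or more in the higher group. Gstm4, with 0 counts in EF, was given in addition. Members and lists were chosen with earlier results of these data known. The smallest library held 11195371 counts, and intervals for counting error do not include differences between cultures. Groups came from the genotype labels, and no library was left out of the main fits. One gene of these lists is not reported by name here.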

Additional observations from a re-analysis of the deposited data

Results flagged for a closer look

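In groups of 4 libraries, a value was singled out where its distance to the nearest other library, divided by the range of the group, was above Dixon's 95% critical value. Of 75 groups with a mean of 1 CPM or more, 5 met this, and chance alone gives about 1 in 20. EFPrx1 library 225 stood apart for Gclc, at 68.36 CPM with the next library at 41.77, and for Gstm5, at 79.2 CPM with the next at 26.71. EFPrx1 library 219 was highest for Gpx4, at 311.3 CPM with the next at 188.9. The same library was lowest for Sod1, at 126.1 CPM with the next at 228.2. In experiment 2, hr library 1-2 was lowest for Gstm5, at 11.58 CPM with the next at 12.84.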

How the results depend on the processing

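Settings with fewer libraries or fewer genes tested are weaker or looser tests by construction, and for every other change given here the cause was not tested. In EFPrx1 against WT, the 3 genes called higher became 1 with DESeq2 size factors, with no filter, with the stricter filter and with limma-voom, and 0 to 4 with 1 library left out, which also took the 10 called lower to between 5 and 10. In ha against EF, the 5 called higher became 1 with close pairs summed and 1 to 5 with 1 library left out, and the 21 called lower became 9 with close pairs summed. In hr against EF, the 1 gene called higher became 0 with no filter, limma-voom, the replicate block or close pairs summed, 2 with the DESeq2 test or only the groups compared, 3 with hr pair 1 alone, 2 with hr pair 2 alone and 0 to 2 with 1 library left out. The 0 called lower became 2 with no filter, 1 with the stricter filter, 4 with the DESeq2 test, 3 with only the groups compared, 4 with hr pair 1 alone, 8 with hr pair 2 alone and 0 to 3 with 1 library left out. In hr against ha, the 20 called higher became 12 with close pairs summed, and the 5 called lower became 3 with no filter, only the groups compared or the replicate block, 1 with close pairs summed and 2 to 5 with 1 library left out. Calls kept in every setting run were 5 of 13 in EFPrx1 against WT, 10 of 26 in ha against EF, 0 of 1 in hr against EF and 13 of 25 in hr against ha. The use of 1 hr pair alone was chosen after seeing the data. In hr against EF, 7.87% of all genes were called higher and 8.26% lower with pair 1 alone. With pair 2 alone these shares were 8.53% and 6.30%, and with the DESeq2 test 7.75% and 6.34%. With pair 2 alone, the hr against EF differences turned to -1.81 for Sod3, -0.80 for Gstm1 and -1.1 for Aldh3a1, and with pair 1 alone the hr against ha difference of Gstm1 turned to 0.46. The labels state no pairing of libraries with the same replicate number, so the samples were not taken as paired. Deviations of EF library 1 and ha library 1 from their group means correlated at r = -0.087 over 9196 genes. That value cannot decide whether they were paired, because the EF libraries differed by only 1.32 times counting variance. With the replicate block, ha against EF had 4 higher and 18 lower, and hr against ha 18 higher and 3 lower. Where an omission or the summing of close pairs left 1 library in a group, that library was assumed to vary like the other groups. In such fits calls over the whole table also changed, with fewer in some comparisons and more in others. A call lost or gained there is therefore not particular to these genes. Genes near 0, such as Gsta1 in ha and Gpx2, are limited by depth.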

Other observations

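EFPrx1 library 221 of experiment 1 and the EF libraries of experiment 2 share the number 221 in their titles. Nqo1 was at 39.2 CPM in the former and at 79.6 and 82.1 CPM in the latter. Gsta1 was at 0.528 CPM against 21.6 and 22.6, Aldh3a1 at 66.7 against 188 and 189, and Gclm at 154 against 180.3 and 179. These values come from different flowcells and were scaled separately, and the difference was not tested.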
